A study of Mus musculus with 6 samples.

Results

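The mitochondrial ribosomal protein genes encode the proteins of the mitochondrial ribosome, which makes the proteins of mitochondrial DNA. They were chosen by symbol: a listed gene belonged here when its Entrez gene ID mapped to a mouse symbol that starts with Mrpl or Mrps followed by a digit. Of the 13363 listed genes, 78 did, 49 with an Mrpl symbol (large subunit) and 29 with an Mrps symbol (small subunit). All 78 protein-coding genes of RefSeq that match the rule were listed, and 0 of its 6 matching pseudogenes. RNA had been sequenced from whole gastrocnemius muscle of male Balb/c mice bought at 6 weeks of age. There were 3 samples from mice inoculated under the skin of the right flank with C26 cells (C26) and 3 from mice without inoculation (Control). These cells come from a colon carcinoma of the mouse, and mice that bear them lose muscle and fat. The labels number the samples of a group as replicates, and whether each comes from a single mouse is not stated. Each sample is called a muscle below. No genotype or other treatment is named for either group. Total RNA was depleted of rRNA and primed with random hexamers. In whole muscle, fewer cells of a type and less RNA per cell cannot be told apart.

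The mitochondrial ribosome descends from a bacterial ribosome. Its rRNAs and the mRNAs it reads come from mitochondrial DNA, while its proteins are coded in the nucleus, made in the cytosol and imported. The large subunit forms the peptide bond and leads the new chain to the inner membrane, and the small subunit binds and decodes mRNA. Some of the proteins have a bacterial counterpart and others arose in mitochondria. The products of this ribosome are core subunits of the respiratory chain and the ATP synthase, on which muscle depends for oxidative energy. NRF1, GABPA and YY1 are transcription factors known to bind promoters of many nuclear genes for mitochondrial proteins.

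Promoters of 69 of the 78 genes were in the RefSeq promoter table of GRCm38.p6, a C57BL/6J assembly, as the 250 bases before the start. Both strands were searched for 7 short motifs. The GCNTGCGC form of the NRF1 motif was in 18 of the 69 (26.1%), against 8.42% of all 27025 promoters and 16.1% of the 10600 promoters of listed genes. The palindromic NRF1 form, the letters in capitals in the stretch of Mrpl9 below, also matches the shorter form. It was in 3 (4.35%), namely Mrpl9, Mrpl32 and Mrpl39, against 0.781% of all promoters and 1.58% of those of listed genes. CCGGAAG, the core bound by GABPA and other ETS factors, was in 17 (24.6%), against 7.05% and 13.3%. AAGATGGC, the YY1 motif, was in 4 (5.8%), against 1.59% and 1.92%, in Mrps11, Mrps12, Mrpl32 and Mrpl36. The E-box CACGTG was in 5 (7.25%), against 6.05% and 8.36%. The FoxO motif GTAAACA was in 2 (2.9%), against 3.09% and 2.07%. The ESRRA motif TCAAGGTCA was in 0, against 0.366% and 0.255%. Apart from the NRF1 forms, no motif contains another. These are matches of letters and not sites, and the genes above are named because the counts are small.

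The stretches below show these letters in genes described further on, 3 that were higher in C26 muscle (Mrpl9, Mrpl32 and Mrpl3) and 2 that were lower (Mrps21 and Mrps22). Each is the 150 bases that end just before the start, read 5′ to 3′ on the strand of the gene, with capitals on the NRF1 letters in Mrpl9, Mrpl32 and Mrps21 and on the ETS letters in Mrpl3 and Mrps22. In GRCm38.p6 they lie at chr3:94443186-94443335 (plus strand), chr13:14613038-14613187 (minus), chr9:105053118-105053267 (plus), chr3:95871515-95871664 (minus) and chr9:98601680-98601829 (minus).
Mrpl9: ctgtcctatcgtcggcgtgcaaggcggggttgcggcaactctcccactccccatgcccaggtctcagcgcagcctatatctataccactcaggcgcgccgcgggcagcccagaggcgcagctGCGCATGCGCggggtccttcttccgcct
Mrpl32: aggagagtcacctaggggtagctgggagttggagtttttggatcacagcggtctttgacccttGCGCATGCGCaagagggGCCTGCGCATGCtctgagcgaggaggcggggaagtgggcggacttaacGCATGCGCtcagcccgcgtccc
Mrpl3: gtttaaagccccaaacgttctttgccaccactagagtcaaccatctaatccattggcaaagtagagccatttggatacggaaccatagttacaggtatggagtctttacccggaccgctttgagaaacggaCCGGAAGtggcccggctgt
Mrps21: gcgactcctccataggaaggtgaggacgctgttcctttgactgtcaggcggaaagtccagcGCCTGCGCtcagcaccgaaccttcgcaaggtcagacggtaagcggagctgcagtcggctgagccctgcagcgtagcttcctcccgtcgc
Mrps22: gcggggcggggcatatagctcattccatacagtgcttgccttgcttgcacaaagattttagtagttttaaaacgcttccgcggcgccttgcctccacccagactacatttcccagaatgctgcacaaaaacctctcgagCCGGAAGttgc
The capitals of Mrpl32 form 3 runs in this window, and those of the other stretches form 1 run each. Of the 11 genes with a promoter that were called higher, 4 held the GCNTGCGC form and 4 held CCGGAAG. Of the 3 called lower, 1 held each. The median log2 fold change was -0.03 in genes with the GCNTGCGC form and 0.06 in genes without it, and 0.01 with CCGGAAG and 0.03 without it. The palindromic NRF1 form gave 0.86 in 3 genes, 2 of them called higher, and -0.02 without it. The YY1 letters gave -0.15 in 4 genes and 0.06 without them. The E-box gave -0.16 in 5 and 0.11 without it, and the FoxO letters 0.52 in 2 and -0.0046 without them. Medians of so few genes are a description.

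The deposited values were FPKM. They were rescaled to TPM (transcripts out of a fixed total, a level per length), divided by TMM factors (trimmed mean of M values, 0.903 to 1.08) and tested as log2(TPM + 1) with limma. A gene was called higher or lower at an adjusted p under 0.05 over all 13363 genes. Depth is unknown, since the values hold no read counts. C26 replicate 3 lay nearer to the controls than the other C26 muscles did for many of the 78 genes, and values without it are given for the genes of the mitochondrial ribosome described here whose call it changes. Of the tissue markers, the 6 of muscle fibres summed to between 92566 and 151510 TPM in C26 and between 185840 and 203670 TPM in Control, and 2 of them were called lower (Mylpf and Pvalb). The 6 fat cell markers summed to 472 to 677 TPM in C26 and 765 to 5953 TPM in Control, with 5 called lower. The 5 fibroblast markers summed to 268 to 359 TPM against 455 to 560 TPM with 3 called lower, and the 4 endothelial ones to 57.9 to 62.6 TPM against 67.2 to 82.9 TPM with 1 called lower. The 4 macrophage markers summed to 17.5 to 429.6 TPM in C26 and 11.7 to 23.3 TPM in Control with 0 called, and most of the highest sum was Cd68 in C26 replicate 2 (422 TPM). Of the B cell markers 1 of 5 was listed, at 194 TPM in Control replicate 3 and at most 1.45 TPM in the other muscles, and of the T cell markers 0 of 4 were listed. The part of these markers in the results below was not tested.

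The genes of the mitochondrial ribosome moved in both directions. Among the 78, 14 were called higher in C26 muscle and 3 lower, and 61 were not called. Over all listed genes 19.4% were called higher and 14.5% lower, against 17.9% and 3.85% of these 78. The median log2 fold change was 0.02 (interquartile range -0.22 to 0.41), beside -0.05 over all genes. The change was positive in 40 genes and negative in 38. This median changed sign with the scaling, to -0.03 with weighted TMM factors, -0.20 on the FPKM as deposited and -0.33 after quantile normalization, when the median of all genes was -0.08, -0.14 and 0.02. The 14 genes called higher had positive and the 3 called lower had negative changes under each of the 9 alternative settings, though not all kept their calls. The changes ran from -1.53 to 1.56, with an SD of 0.58 beside 0.91 over all genes. The study's criterion of a fold change above 4 was met by 0 of the 78, against 1.77% of all genes higher and 1.73% lower. At an unadjusted p under 0.05, 34 of the 78 differed, against 47.1% of all genes. All 3 C26 values lay above all 3 Control values in 24 genes (27.0% of all genes) and below them in 10 (26.5% of all genes).

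**Figure D1:**
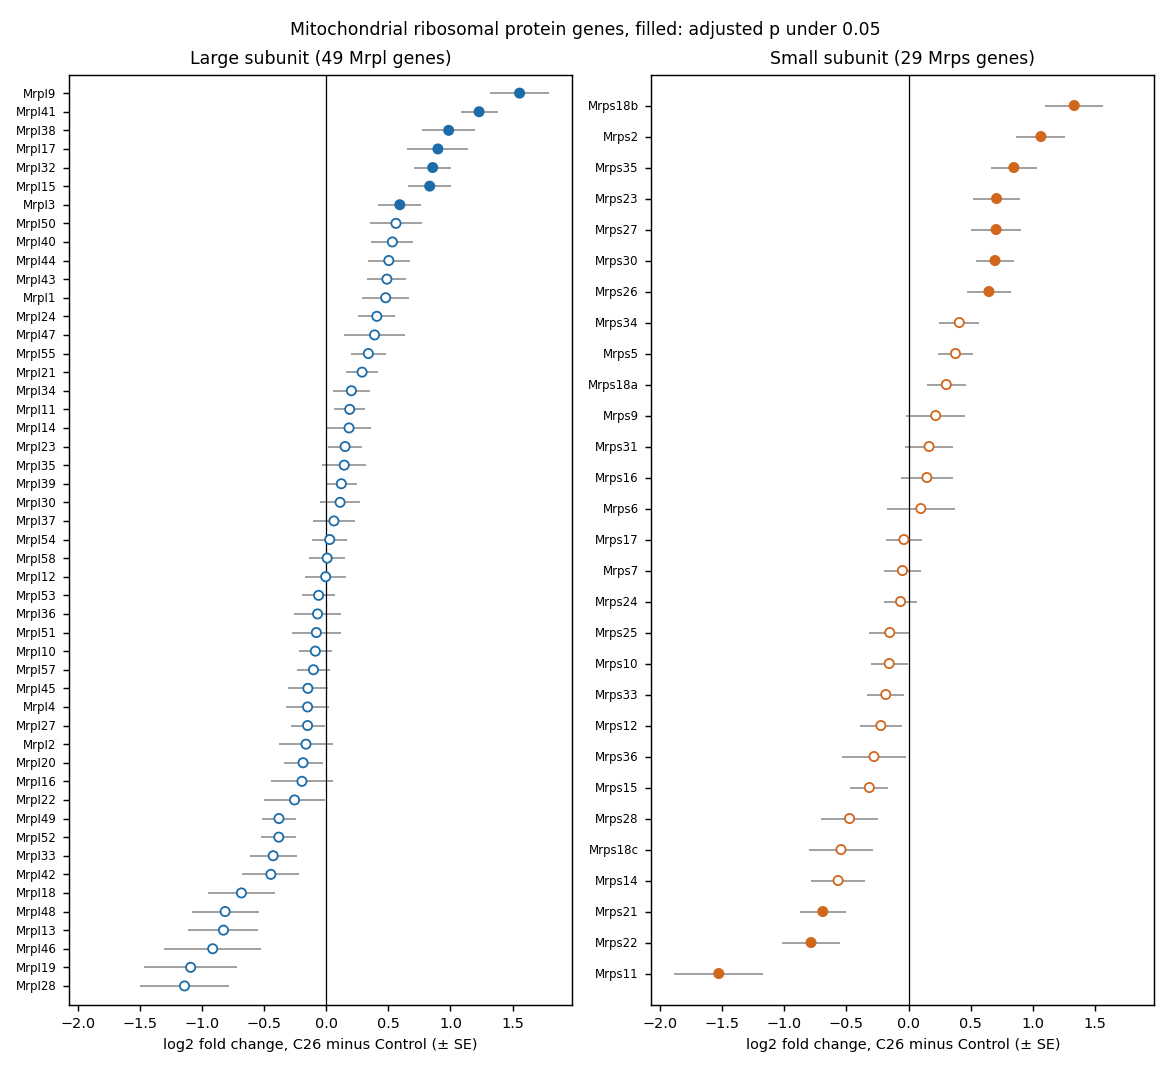
Log2 fold change of C26 over Control on the log2(TPM + 1) scale (x axis, ± SE, n = 3 per group) for each gene (y axis), with the large subunit on the left and the small subunit on the right. Filled points had an adjusted p under 0.05, 7 higher and 0 lower in the large subunit and 7 higher and 3 lower in the small subunit.

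In the large subunit 7 of 49 genes were called higher and 0 lower, with a median log2 fold change of 0.03 that became -0.02 with weighted TMM factors, -0.19 on the FPKM as deposited and -0.35 after quantile normalization. The counts higher and lower were 5 and 9 on the FPKM as deposited, 4 and 12 after quantile normalization, 7 and 4 for TPM without TMM and 12 and 8 without C26 replicate 3. Without C26 replicates 1 and 2 in turn they were 3 and 0, and 4 and 0. Without Control replicates 1, 2 and 3 in turn they were 3 and 0, 6 and 0, and 5 and 0. Over all genes those fits called 1131, 1528, 1152, 2004 and 2231 higher and 669, 946, 724, 1402 and 1958 lower. The levels below are TMM-scaled TPM in the order of replicates 1, 2 and 3, and log2 changes are log2 fold changes of C26 over Control from the limma fit with n = 3 per group. Mrpl9, the relative of a bacterial protein at the base of the stalk that holds the leaving tRNA, changed most. It was at 196, 196 and 119.5 TPM in C26 and 55.6, 65.1 and 47.97 TPM in Control. Every C26 value was above every Control value, and C26 replicate 3 was the lowest of the C26 muscles. The fitted log2 change was 1.56 ± 0.24 (SE, adjusted p = 0.00686), a 2.94-fold difference of fitted values, and 1.88 (adjusted p = 0.00156) without C26 replicate 3.

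Mrpl41, a mitochondria-specific protein also described as a partner of Bcl2, was at 60.6, 49.3 and 63.6 TPM in C26 and 22.6, 24.9 and 24.4 TPM in Control. Here C26 replicate 3 was the highest of all muscles, unlike in most other called genes, and the groups did not overlap. The fitted log2 change was 1.23 ± 0.15 (SE, adjusted p = 0.00397). Mrpl38, a mitochondria-specific protein of the central protuberance, was at 151, 163 and 107 TPM in C26 and 59.3, 81.8 and 68.4 TPM in Control. The groups did not overlap, and the lowest C26 value, in replicate 3, stood above the highest Control value, in replicate 2. The fitted log2 change was 0.99 ± 0.21 (SE, adjusted p = 0.0162).

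Mrpl32, known to need cleavage by the m-AAA protease of the inner membrane before it joins the ribosome, was at 121, 121 and 102 TPM in C26 and 62.05, 69.6 and 56.8 TPM in Control. The groups were far apart, and the fitted log2 change was 0.86 ± 0.15 (SE, adjusted p = 0.00916). Mrpl15, one of the proteins with a bacterial counterpart in the core of the subunit, was at 141, 129 and 105 TPM in C26 and 64.4, 80.9 and 64.01 TPM in Control. It rose by a log2 change of 0.83 ± 0.17 (SE, adjusted p = 0.015), with C26 replicate 3 lowest among the C26 muscles. Mrpl17, whose bacterial relative lies near the outlet of the exit tunnel, was low in all muscles, at 20.1, 25.9 and 13.2 TPM in C26 and 9.58, 10.7 and 9.09 TPM in Control. Its log2 change was 0.90 ± 0.25 (SE, adjusted p = 0.0332), and C26 replicate 3 was again nearest to the controls. The remaining called gene, Mrpl3, is named after its values were seen and because its promoter is shown. It encodes a protein whose bacterial relative reaches towards the peptidyl transferase centre, and it was at 73.1, 52.5 and 65.5 TPM in C26 and 39.5, 47.2 and 38.5 TPM in Control, a log2 change of 0.59 ± 0.17 (SE, adjusted p = 0.0416). The groups did not overlap, but C26 replicate 2 lay close to Control replicate 2.

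The large subunit genes of highest level did not pass the test. Mrpl42 was at 338, 294 and 514 TPM in C26 and 479.6, 558 and 483 TPM in Control, a log2 change of -0.45 (95% interval -0.996 to 0.10, adjusted p = 0.17). C26 replicates 1 and 2 were below all controls, while replicate 3 lay among them, and without replicate 3 the log2 fold change was -0.60 (adjusted p = 0.0264). Mrpl23, which lies near the exit tunnel, was at 324, 339 and 280.2 TPM in C26 and 283, 276 and 287 TPM in Control, a log2 change of 0.15 (95% interval -0.17 to 0.47, adjusted p = 0.41). Mrpl14, at the interface of the subunits, was at 299, 263 and 374 TPM in C26 and 256, 309 and 254 TPM in Control, a log2 change of 0.18 (95% interval -0.25 to 0.61, adjusted p = 0.45). In both genes the groups overlapped.

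Mrpl12 forms the flexible stalk that recruits translation factors and is also known to bind the mitochondrial RNA polymerase. It was at 153, 156 and 195 TPM in C26 and 168, 188 and 149 TPM in Control, and the groups overlapped. Its log2 change was -0.0046 (95% interval -0.40 to 0.39, adjusted p = 0.98). Mrpl58, a peptidyl-tRNA hydrolase built into the ribosome, was at 78.2, 96.6 and 96.3 TPM in C26 and 84.2, 89.97 and 94.6 TPM in Control, with a log2 change of 0.01 (95% interval -0.34 to 0.36, adjusted p = 0.97). Neither gene passed the test, and the intervals give the range of changes that these muscles allow.

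Several large subunit genes were low in C26 replicates 1 and 2 and much nearer to the controls in replicate 3, and they are named here after their values were seen. Mrpl28 was at 27.3, 25.6 and 66.2 TPM in C26 and 75.9, 88.1 and 77.96 TPM in Control, Mrpl19 at 0.833, 1.27 and 4.11 TPM in C26 and 4.78, 5.13 and 4.81 TPM in Control and Mrpl46 at 9.51, 11.7 and 29.4 TPM in C26 and 29.4, 31.3 and 26.7 TPM in Control. With all muscles their log2 fold changes were -1.14 (adjusted p = 0.0512), -1.09 (adjusted p = 0.0629) and -0.91 (adjusted p = 0.11). Without C26 replicate 3 they were -1.49 (adjusted p = 0.00175), -1.49 (adjusted p = 0.0021) and -1.30 (adjusted p = 0.0027). Mrpl13 and Mrpl48 were at -0.83 (adjusted p = 0.0627) and -0.81 (adjusted p = 0.0574) with all muscles, so neither was called, and at -1.07 (adjusted p = 0.00292) and -1.04 (adjusted p = 0.00307) without that muscle.

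In the small subunit 7 of 29 genes were called higher and 3 lower, with a median log2 fold change of -0.04. The counts were 4 and 7 on the FPKM as deposited, 3 and 10 after quantile normalization, 5 and 3 for TPM without TMM and 9 and 7 without C26 replicate 3. Without C26 replicate 1, and without C26 replicate 2, they were 2 and 0. Without Control replicates 1, 2 and 3 in turn they were 3 and 0, 6 and 0, and 5 and 1. Over all genes those fits called 1131, 1528, 1152, 2004 and 2231 higher and 669, 946, 724, 1402 and 1958 lower. Mrps18b was the most changed of those that rose, at 209.6, 227 and 131 TPM in C26 and 68.3, 80.8 and 68.9 TPM in Control. C26 replicate 3 lay between the other C26 muscles and the controls, and the groups did not overlap. The fitted log2 change was 1.33 ± 0.23 (SE, adjusted p = 0.00916), a 2.52-fold difference, and 1.66 (adjusted p = 0.00152) without C26 replicate 3.

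**Figure D2:**
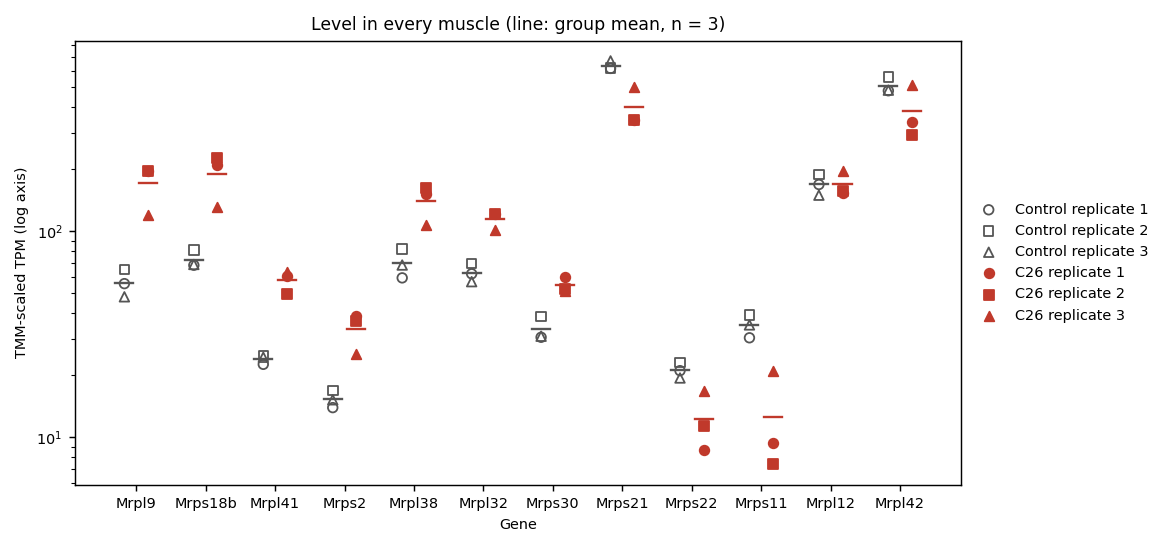
TMM-scaled TPM on a log axis (y) for 12 of the genes (x) in every muscle, with filled points for C26, open points for Control, a symbol for each replicate number and a line at the group mean. The C26 and Control points do not overlap in the first 10 genes, and they overlap in Mrpl12 and Mrpl42.

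Mrps2, whose bacterial relative sits between the head and the body of the subunit, was at 38.8, 36.7 and 25.3 TPM in C26 and 13.9, 16.8 and 15.2 TPM in Control. The lowest C26 value stood above the highest Control value, and the fitted log2 change was 1.07 ± 0.20 (SE, adjusted p = 0.0108). Mrps35, a mitochondria-specific protein, had one of the lowest levels, at 5.67, 5.21 and 3.81 TPM in C26 and 2.61, 2.40 and 1.78 TPM in Control, and rose by a log2 change of 0.85 ± 0.19 (SE, adjusted p = 0.0168). On the log2(TPM + 1) scale the change of so low a gene is understated. Mrps30 was at 60.1, 52.4 and 50.9 TPM in C26 and 30.5, 38.6 and 30.9 TPM in Control, with a log2 change of 0.70 ± 0.15 (SE, adjusted p = 0.0176). Its C26 replicate 3 was close to replicate 2 and the groups did not overlap. Although its symbol is that of a small subunit protein, structures of the ribosome place it in the large subunit.

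Mrps27, a pentatricopeptide repeat protein, was at 39.04, 43.7 and 28.96 TPM in C26 and 20.8, 26.1 and 19.9 TPM in Control, a log2 change of 0.71 ± 0.20 (SE, adjusted p = 0.037). The gap between the groups was narrow, with C26 replicate 3 just above Control replicate 2. Mrps23 was at 104, 104 and 88.8 TPM in C26 and 57.7, 75.6 and 49.4 TPM in Control, a log2 change of 0.71 ± 0.19 (SE, adjusted p = 0.0315), with Control replicate 2 nearest to the C26 values. Mrps26, named after its values were seen as the remaining called gene, had a log2 change of 0.65 ± 0.17 (SE, adjusted p = 0.0315) and means of 110.2 ± 20.6 TPM in C26 and 69.2 ± 3.43 TPM in Control (SD, n = 3). For these 3 mitochondria-specific genes C26 replicate 3 was the lowest C26 muscle.

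In the fit reported the genes called lower were in the small subunit. Large subunit genes were also called lower under the other scalings given above and without C26 replicate 3, and 1 of them, Mrpl28, was called lower with a minimum mean of 1 TPM and with an intensity trend in the prior variance. Mrps11, whose bacterial relative lies on the platform beside the path of the mRNA, was at 9.32, 7.38 and 20.9 TPM in C26 and 30.4, 39.2 and 35.05 TPM in Control. All C26 values were below all Control values, and C26 replicate 3 was the highest of the C26 muscles. The fitted log2 change was -1.53 ± 0.36 (SE, adjusted p = 0.021), a 2.88-fold lower level, and -1.86 (adjusted p = 0.00198) without C26 replicate 3. Mrps21, with a bacterial counterpart, was the most abundant transcript of the 78, at 346, 347 and 503 TPM in C26 and 615, 617 and 669 TPM in Control. C26 replicates 1 and 2 were nearly equal, replicate 3 lay between them and the controls, and the fitted log2 change was -0.69 ± 0.19 (SE, adjusted p = 0.0314). Mrps22, a mitochondria-specific protein, was at 8.64, 11.4 and 16.7 TPM in C26 and 21.02, 23.03 and 19.4 TPM in Control. The groups did not overlap, and the fitted log2 change was -0.79 ± 0.24 (SE, adjusted p = 0.0442).

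The 3 Mrps18 genes are paralogs related to a single bacterial protein, and the mitochondrial ribosome holds a product of each. Mrps18b was called higher, as given above. Mrps18a, which structures place in the large subunit, was at 129, 146 and 166 TPM in C26 and 110.4, 134 and 111 TPM in Control, a log2 change of 0.30 (95% interval -0.08 to 0.69, adjusted p = 0.18). Mrps18c was at 59.4, 47.6 and 94.6 TPM in C26 and 95.97, 93.5 and 93.7 TPM in Control, a log2 change of -0.54 (95% interval -1.15 to 0.07, adjusted p = 0.14), and -0.73 (adjusted p = 0.0157) without C26 replicate 3. For Mrps18a the groups overlapped, and for Mrps18c only replicates 1 and 2 of C26 stood below the controls. Whether the 3 paralogs differ in their changes was not tested.

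Mrps12, the counterpart of a bacterial protein of the decoding centre, was at 35.6, 45.9 and 35.5 TPM in C26 and 47.99, 49.6 and 39.1 TPM in Control, a log2 change of -0.22 (95% interval -0.63 to 0.19, adjusted p = 0.34). Mrps36 was at 111, 106 and 195 TPM in C26 and 151, 175 and 156 TPM in Control, a log2 change of -0.28 (95% interval -0.89 to 0.33, adjusted p = 0.42), and -0.48 (adjusted p = 0.039) without C26 replicate 3. C26 replicate 3 was the highest of all muscles and replicates 1 and 2 the lowest. Its protein is now assigned to the 2-oxoglutarate dehydrogenase complex rather than to the ribosome. With Mrps36 left out and with Mrps18a and Mrps30 counted in the large subunit, the large subunit had 8 of 51 genes higher and 0 lower with a median of 0.06, and the small subunit had 6 of 26 higher and 3 lower with a median of -0.04. The large subunit so counted had 6 higher and 9 lower on the FPKM as deposited, with a median of -0.15, 4 and 12 after quantile normalization, with a median of -0.30, 8 and 4 for TPM without TMM, and 13 and 8 without C26 replicate 3.

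The summed level of the 78 genes was 7012 ± 581 TPM in C26 and 6940.2 ± 336 TPM in Control (SD, n = 3). The large subunit summed to 4568 ± 425 TPM in C26 and 4423 ± 243 TPM in Control, and the small subunit to 2444 ± 168 and 2517 ± 96.8 TPM. These differences were smaller than the spread within the groups. The small subunit sum divided by the large subunit sum was 0.525, 0.563 and 0.520 in C26 and 0.569, 0.558 and 0.582 in Control, so that the groups overlapped. On the FPKM as deposited the sums of the 78 genes did not overlap, at 3774, 3894 and 4058 FPKM in C26 and 4483, 4330 and 4694 FPKM in Control. Those of the large subunit ran from 2475 to 2670 FPKM in C26 and from 2779 to 2968 FPKM in Control, and those of the small subunit from 1300 to 1402 and from 1550 to 1726 FPKM. Which group had the higher sum of the 78 genes thus depended on the scaling.

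**Figure D3:**
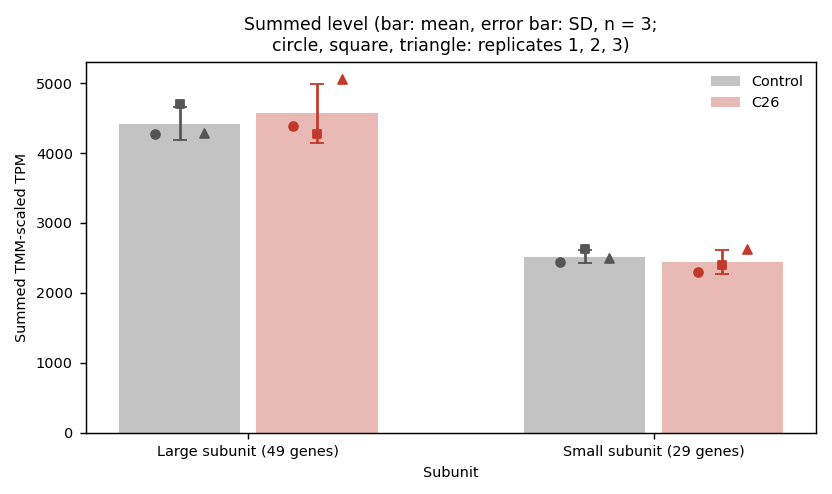
Summed TMM-scaled TPM (y axis) of the large and the small subunit genes (x axis) in Control and C26 muscle, with bars at the mean, error bars of 1 SD (n = 3) and a symbol for each muscle. The large subunit means are 4423 TPM in Control and 4568 TPM in C26, and those of the small subunit are 2517 and 2444 TPM.

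A list based on the unified names of the proteins entered 45 genes as having a bacterial counterpart and 33 as mitochondria-specific. Mrps18a and Mrps18b are among the 33, although they are related to the same bacterial protein as Mrps18c, which is among the 45. Mrpl55, not called in the fit reported, is also among the 33, and its class is open to question. In the small subunit, 6 of 13 mitochondria-specific genes were called higher (Mrps18b, Mrps35, Mrps23, Mrps27, Mrps30 and Mrps26) and 1 lower (Mrps22), with a median log2 fold change of 0.41. Of the 10 left without Mrps18a, Mrps30 and Mrps36, 5 were higher and 1 lower, with a median of 0.53 that fell to 0.31 on the FPKM as deposited and 0.12 after quantile normalization. Of the 16 small subunit genes with a bacterial counterpart, 1 was higher (Mrps2) and 2 lower (Mrps11 and Mrps21), with a median of -0.11. The median over the 13 fell to 0.19 on the FPKM as deposited, with 3 genes higher and 1 lower, and to 0.01 after quantile normalization, with 2 and 2, when the median of all genes was 0.02. That over the 16 became -0.32 with 1 and 6 called, and -0.50 with 1 and 8. Without C26 replicate 1 or C26 replicate 2, the mitochondria-specific genes of the small subunit had 1 gene higher and 0 lower. Over all 13363 genes those fits called 1131 and 1528 higher and 669 and 946 lower. In the large subunit 5 of 29 genes with a bacterial counterpart and 2 of 20 mitochondria-specific genes were higher and 0 lower, with medians of 0.11 and 0.02 that became -0.10 and -0.20 on the FPKM as deposited and -0.28 and -0.40 after quantile normalization. The counts higher and lower in these classes were 3 and 5, and 2 and 4, on the FPKM as deposited, 3 and 7, and 1 and 5, after quantile normalization, and 7 and 5, and 5 and 3, without C26 replicate 3. No difference between these classes was tested. Across the 78 genes the log2 fold change had a Spearman correlation of 0.27 with transcript length and -0.06 with mean level, across genes that share the same 6 libraries. The median transcript length was 1051.5 bases for these genes and 2217.75 bases over all genes.

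The number of genes called lower depended on C26 replicate 3. Without it 21 of the 78 were called higher and 15 lower, against 24.8% and 16.2% of all genes, and these held all 14 and all 3 of the genes called with every muscle. In the 21, C26 replicate 3 lay on the same side of the Control mean in 20, at a median of 58.7% of the mean difference of replicates 1 and 2. In the 15 it did so in 10, at a median of 13.6%. These genes were picked by replicates 1 and 2, so the shares are a description. Taken singly, C26 replicate 1 was above all controls in 30 of the 78 genes and below all of them in 36, replicate 2 in 29 and 33, and replicate 3 in 44 and 13. Over all genes replicate 1 was above the controls in 36.4% and below them in 41.6%, replicate 2 in 37.8% and 41.1%, and replicate 3 in 38% and 36.2%. The log2 differences from the Control mean had a Spearman correlation across the 78 genes of 0.939 for replicates 1 and 2, 0.793 for replicates 1 and 3 and 0.691 for replicates 2 and 3, all against the same control muscles. The muscle fibre marker sum of replicate 3 was the highest of the C26 muscles, and its part in these values was not tested.

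**Figure D4:**
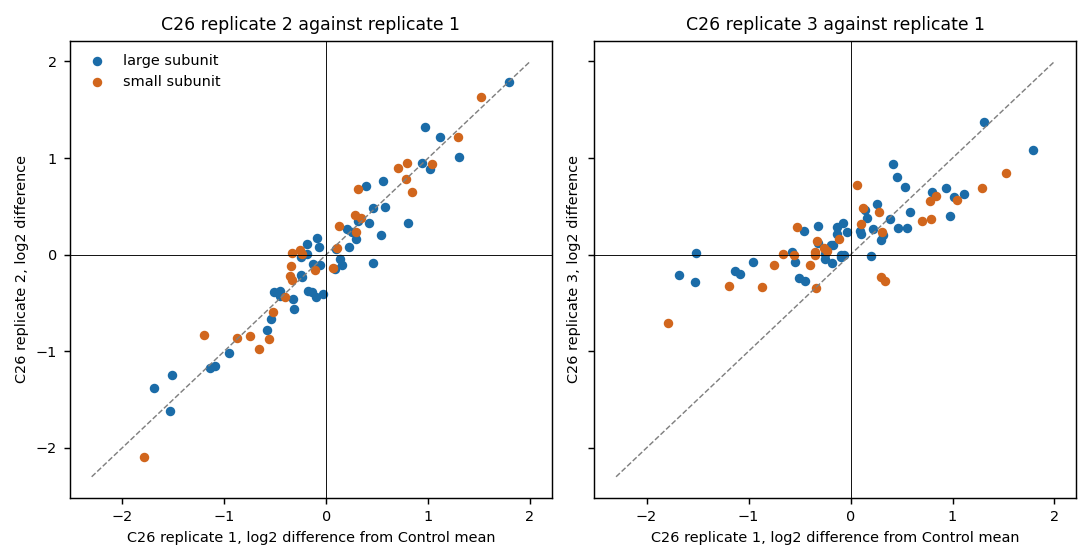
Log2 difference from the Control mean in C26 replicate 2 (left panel, y axis) and replicate 3 (right panel, y axis) against that in replicate 1 (x axes), with a point for each of the 78 genes colored by subunit and a dashed line of equality. Replicates 1 and 2 lie along the line, while the points of replicate 3 spread less, with an SD of 0.37 beside 0.72 in replicate 1, and most of the genes lowest in replicate 1 are nearer to 0.

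With 1 muscle left out in turn, the counts of genes called higher and lower were 5 and 0 without C26 replicate 1, 6 and 0 without C26 replicate 2, 6 and 0 without Control replicate 1, 12 and 0 without Control replicate 2, and 10 and 1 without Control replicate 3. Over all genes these 5 fits called between 1131 and 2231 higher and between 669 and 1958 lower. Mrpl9, Mrpl32, Mrpl41, Mrps2 and Mrps18b were called in all 6 fits that leave out a muscle, with adjusted p between 0.00152 and 0.0494. Mrps35 was called in 4 fits and lost without C26 replicate 1 or 2. Mrpl15, Mrpl38 and Mrps30 were called in 3 and lost without C26 replicate 1, C26 replicate 2 or Control replicate 1. Mrps11 kept its call without C26 replicate 3 or Control replicate 3 (adjusted p 0.00198 to 0.0802 over the 6 fits), and Mrps21 (0.00797 to 0.11), Mrps22 (0.00852 to 0.12) and Mrpl17 (0.0038 to 0.11) kept theirs only without C26 replicate 3. Mrpl3, Mrps23, Mrps26 and Mrps27 were called in 2 of the 6 fits each. Scaling also moved calls. After quantile normalization Mrpl3, Mrpl15, Mrpl38, Mrps23, Mrps26, Mrps27 and Mrps30 were not called, and on the FPKM as deposited Mrpl3, Mrpl17, Mrps23, Mrps26 and Mrps27 were not. Mrpl17, Mrps26 and Mrps27 lost the call for TPM without TMM, and Mrpl3 with weighted TMM factors. With a pseudocount of 0.1, Mrpl3, Mrps22, Mrps26 and Mrps27 lost it. Mrpl9, Mrpl32, Mrpl41, Mrps2, Mrps11, Mrps18b and Mrps35 were called under all 9 alternative settings.

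Of 5 further proteins of the mitochondrial ribosome with other symbols, 1 was called higher and 0 lower, with a median log2 fold change of -0.09. Dap3, a GTP-binding protein of the small subunit, was at 57.3, 77.5 and 45.2 TPM in C26 and 26.6, 36.5 and 33.01 TPM in Control. The groups did not overlap and the fitted log2 change was 0.86 ± 0.23 (SE, adjusted p = 0.032), and the call was kept in 1 of the 6 fits that leave out a muscle, the one without C26 replicate 3. Gadd45gip1, a large subunit protein at the exit tunnel, had a log2 change of -0.12 (95% interval -0.61 to 0.38, adjusted p = 0.68).

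Of 24 listed genes for assembly of the ribosome and modification of its rRNA, 9 were called higher and 1 lower, with a median of 0.45. On the FPKM as deposited 4 were higher and 2 lower with a median of 0.24, and after quantile normalization 7 and 1 with a median of 0.34. Malsu1, an assembly factor that holds the large subunit apart from the small one by binding to Mrpl14, was at 242, 223 and 166 TPM in C26 and 80.1, 83.3 and 77.2 TPM in Control. No C26 value was near a Control value, and the fitted log2 change was 1.36 ± 0.18 (SE, adjusted p = 0.00465). Mpv17l2, an inner membrane protein linked to assembly, had a log2 change of 1.31 ± 0.33 (SE, adjusted p = 0.0258) and was called in 1 of the 6 fits, that without C26 replicate 3. Mrm2, which methylates the large rRNA, was at 1.77, 3.42 and 5.02 TPM in C26 and 7.70, 9.95 and 8.58 TPM in Control, a log2 change of -1.21 ± 0.29 (SE, adjusted p = 0.0223), called in 3 of the 6. Without C26 replicate 1, C26 replicate 2 and Control replicate 1 the count of this list called higher was 3, 4 and 3. Over all 13363 genes it was 1131, 1528 and 1152.

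Of 13 translation factors, 4 were called higher and 1 lower, with a median of 0.23 that became 0.02 on the FPKM as deposited, 0.08 after quantile normalization and 0.0061 without Control replicate 3. Gfm1, the elongation factor that moves the ribosome along mRNA, was at 72.5, 69.3 and 74.8 TPM in C26 and 32.7, 49.8 and 27.4 TPM in Control, a log2 change of 1.002 ± 0.23 (SE, adjusted p = 0.0189), and was called in 3 of the 6 fits with a muscle left out. Mtif3, which helps to start translation, was at 31.5, 27.2 and 28.2 TPM in C26 and 16.1, 16.9 and 14.6 TPM in Control, a log2 change of 0.83 ± 0.13 (SE, adjusted p = 0.00785), and was called in all 6. Mtfmt, which formylates the initiator tRNA, had a log2 change of -0.83 ± 0.24 (SE, adjusted p = 0.0382) and was called in 1 of the 6. Tufm, the factor that delivers tRNA, was at 152, 153 and 156 TPM in C26 and 106, 141 and 103 TPM in Control, a log2 change of 0.41 (95% interval 0.02 to 0.80, adjusted p = 0.0924), called in 1 of the 6. The other factors that rose, named after their values were seen, were Mrrf, which recycles the ribosome (0.83, adjusted p = 0.0174), and Oxa1l, which inserts new chains into the inner membrane (0.76, adjusted p = 0.0152), each called in 3 of the 6. Of 20 mitochondrial aminoacyl-tRNA synthetases, 2 were called higher and 1 lower, with a median of 0.02 that became -0.14 on the FPKM as deposited and -0.02 with weighted TMM factors. On the FPKM as deposited 1 was higher and 6 lower, and without C26 replicate 3 they were 2 and 6. Iars2 had a log2 change of 0.85 ± 0.19 (SE, adjusted p = 0.0186), Wars2 of 0.54 ± 0.15 (SE, adjusted p = 0.0362) and Sars2 of -0.87 ± 0.20 (SE, adjusted p = 0.0194), called in 3, 2 and 3 of the 6 fits. Without C26 replicate 1 the translation factors had 1 gene higher and 0 lower, and the synthetases 0 and 0. All 13363 genes then had 1131 higher and 669 lower.

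Of 16 genes for mitochondrial RNA processing and stability, 7 were called higher and 1 lower, with a median of 0.53. Ptcd1, a pentatricopeptide repeat protein, was at 49.5, 47.96 and 22.8 TPM in C26 and 7.37, 8.87 and 7.42 TPM in Control, and all C26 values were far above all Control values. Its log2 change was 2.13 ± 0.31 (SE, adjusted p = 0.00598). Elac2, which cuts the end of tRNA precursors, had 1.495 ± 0.28 (SE, adjusted p = 0.0108), and Trmt10c, a subunit of mitochondrial RNase P, 0.90 ± 0.17 (SE, adjusted p = 0.0106), and all of these were called in the 6 fits with a muscle left out. The gene called lower, named after its values were seen, was Slirp, an RNA-binding partner of Lrpprc (-0.74, adjusted p = 0.0489), called in 1 of the 6. Of 13 genes of mitochondrial transcription and the nucleoid, 6 were higher and 0 lower, with a median of 0.43. Polg, the polymerase of mitochondrial DNA, had a log2 change of 1.39 ± 0.29 (SE, adjusted p = 0.0155), Atad3a 1.23 ± 0.17 (SE, adjusted p = 0.00588) and Tfb2m, a transcription initiation factor, 0.96 ± 0.19 (SE, adjusted p = 0.0132), called in 3, 6 and 4 of the 6 fits. Tfam, which packs mitochondrial DNA and starts its transcription, was at 23.8, 23.3 and 31.4 TPM in C26 and 23.8, 27.8 and 25.4 TPM in Control, a log2 change of 0.02 (95% interval -0.38 to 0.41, adjusted p = 0.94). Polrmt, the mitochondrial RNA polymerase, had 0.44 (95% interval 0.07 to 0.81, adjusted p = 0.0692), and 0.60 (adjusted p = 0.0278) without C26 replicate 3. On the FPKM as deposited the counts called higher in these lists were 4 and 5, with medians of 0.31 and 0.21, and after quantile normalization 4 and 4, with medians of 0.27 and 0.29. Without C26 replicate 1 they were 3 and 1, when 1131 of all 13363 genes were called higher.

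Of 17 genes for import and mitochondrial content, 10 were higher and 0 lower, with a median of 0.62. The largest changes were those of Hspa9, the chaperone that pulls proteins into the matrix, at 483, 508 and 420.5 TPM in C26 and 155, 236 and 143 TPM in Control (1.43 ± 0.22 SE, adjusted p = 0.00695), Phb2, a prohibitin of the inner membrane (1.05 ± 0.21 SE, adjusted p = 0.0132), and Hspe1, the matrix co-chaperonin (0.91 ± 0.21 SE, adjusted p = 0.0205), called in 6, 4 and 3 of the 6 fits with a muscle left out. Of 9 regulators of mitochondrial gene expression, 5 were higher and 1 lower, with a median of 0.94. Ppargc1a, the coactivator that raises mitochondrial gene expression, was at 18.7, 18.3 and 17.6 TPM in C26 and 4.52, 6.01 and 3.57 TPM in Control, and its C26 values lay close together and far above Control. Its log2 change was 1.77 ± 0.18 (SE, adjusted p = 0.00282). Nrf1 was at 23.3, 22.9 and 12.4 TPM in C26 and 6.33, 6.18 and 8.54 TPM in Control, a log2 change of 1.32 ± 0.27 (SE, adjusted p = 0.0142), called in 3 of the 6. Gabpa had 0.94 ± 0.16 (SE, adjusted p = 0.00849), Yy1 1.14 ± 0.18 (SE, adjusted p = 0.0079) and Esrra -0.27 (95% interval -0.91 to 0.38, adjusted p = 0.47). The remaining called regulators, named after their values were seen, belong to the same coactivator family as Ppargc1a and moved in opposite directions, Pprc1 at 1.01 (adjusted p = 0.009) and Ppargc1b at -0.91 (adjusted p = 0.0362), called in 6 and 2 of the 6 fits. On the FPKM as deposited the first list had 4 genes higher with a median of 0.41, and after quantile normalization 1 with a median of 0.22. The regulators kept 5 genes higher in both, with medians of 0.71 and 0.81. Without C26 replicate 1 the counts called higher were 1 of 17 and 4 of 9, beside 1131 of all 13363 genes.

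**Figure D5:**
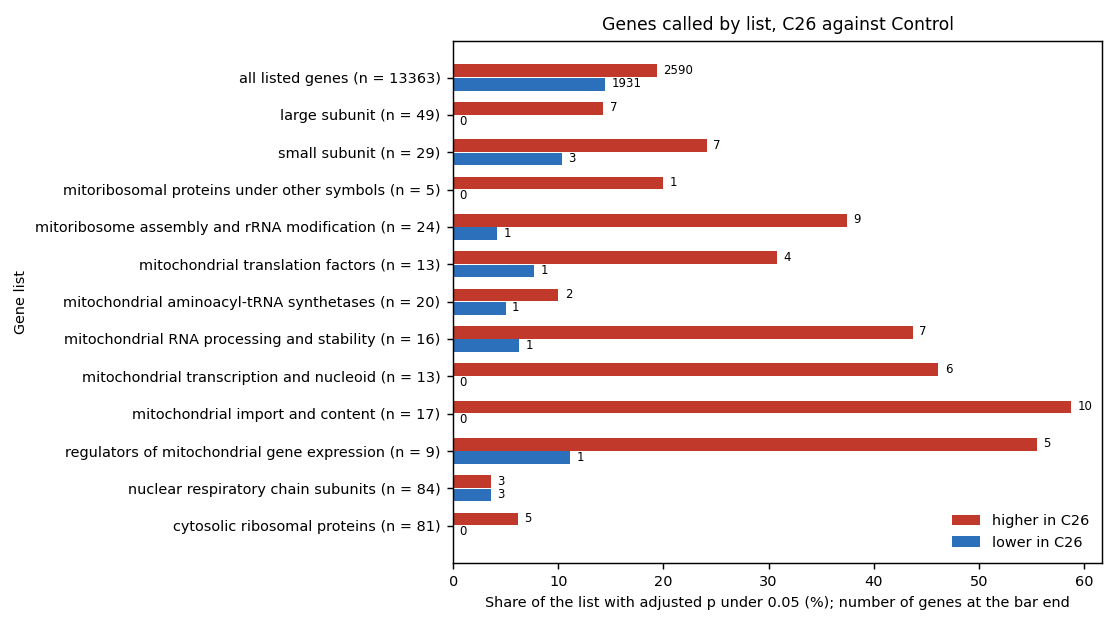
Share of each gene list (y axis) called at an adjusted p under 0.05 (x axis, %), with red bars for genes higher and blue bars for genes lower in C26 and the number of genes at the end of each bar. Of the large subunit genes 14.3% were higher, of the small subunit genes 24.1%, and of all listed genes 19.4%.

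The nuclear partners of the products of this ribosome, and the proteins of the cytosolic ribosome, gave other counts. Of 84 listed nuclear genes of the respiratory chain, 3 were called higher and 3 lower, with a median of -0.16. On the FPKM as deposited they were 1 and 6 with a median of -0.37, and after quantile normalization 1 and 10 with a median of -0.51. Without C26 replicate 3 the counts were 3 and 31 and the median was -0.34. The called genes with the largest changes were Cox6a1 (-1.15 ± 0.21 SE, adjusted p = 0.0108), Ndufv3 (-1.08 ± 0.33 SE, adjusted p = 0.0463) and Cox6b2 (0.79 ± 0.20 SE, adjusted p = 0.0281), called in 6, 1 and 2 of the 6 fits with a muscle left out. Ndufv3 was called without C26 replicate 3, at -1.38 (adjusted p = 0.0021). Cox6b2 was very low, at 1.97, 1.61 and 1.19 TPM in C26 and 0.374, 0.880 and 0.274 TPM in Control. Its log2 change ran from 0.52 to 1.57 over the alternative settings that keep all muscles. The other called genes, named after their values were seen, were Atp5g2 (0.65, adjusted p = 0.0196), Cox7a2l (0.68, adjusted p = 0.0166) and Ndufa4l2 (-0.69, adjusted p = 0.0318), called in 3, 3 and 2 of the 6. Of 81 listed cytosolic ribosomal proteins, 5 were higher and 0 lower, with a median of 0.30 that fell to 0.09 on the FPKM as deposited and 0.01 after quantile normalization, each with 1 gene higher. Without C26 replicate 3 they were 12 and 0 with a median of 0.53, and without Control replicate 3 they were 18 and 0. Rpl10 (1.37 ± 0.27 SE, adjusted p = 0.013), Rpl22l1 (1.36 ± 0.31 SE, adjusted p = 0.0183) and Rpl30 (0.85 ± 0.22 SE, adjusted p = 0.0283) changed most, followed by Rpl4 (0.73, adjusted p = 0.0459) and Rpl26 (0.72, adjusted p = 0.0184), which are named after their values were seen. They were called in 4, 2, 2, 2 and 3 of the 6 fits, in that order. The log2 fold changes had an SD of 0.30 in the cytosolic and 0.58 in the mitochondrial ribosomal proteins.

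Of the 69 genes with a promoter entry, 21 had the start of another gene on the opposite strand within 300 bases. In 17 of these pairs both genes were listed, and 11 of the 17 changes had the same sign, the pair of Mrps11 and Mrpl46 being counted from either side. The pairs with both genes called were Mrpl32 with Psma2, a proteasome subunit 205 bases away, whose log2 change was 1.12 ± 0.14 (SE, adjusted p = 0.00424), and Mrps27 with Ptcd2, 108 bases away, at 0.60 ± 0.16 (SE, adjusted p = 0.0323). These neighbors are named after their values were seen. Mrps11 and Mrpl46 are read in opposite directions from starts 42 bases apart. The stretch between them, chr7:78783090-78783130 on the plus strand of GRCm38.p6, holds none of the motifs searched and is shown because this pair holds the most lowered gene of the 78.
Mrps11-Mrpl46: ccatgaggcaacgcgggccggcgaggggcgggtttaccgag
The groups did not overlap for Mrps11 (-1.53, adjusted p = 0.021), and for Mrpl46 (-0.91, adjusted p = 0.11) C26 replicate 3 lay among the controls. Pairs with opposite signs included Mrpl18, at -0.68 (adjusted p = 0.091) and -0.90 (adjusted p = 0.00533) without C26 replicate 3, with Tcp1, a chaperonin subunit, at 0.82 ± 0.18 (SE, adjusted p = 0.0183), and Mrpl30, at 0.11 (adjusted p = 0.61), with Mitd1, at -1.43 ± 0.33 (SE, adjusted p = 0.0204). Mrps12, at -0.22 (adjusted p = 0.34), starts 147 bases from Sars2, at -0.87 (adjusted p = 0.0194).

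In RefSeq the span of 20 of the 78 genes, introns included, overlaps that of another protein-coding gene. The base counts below are of these spans and not of shared transcript. The strand setting of the library is not given in the sources used here, and reads from shared bases cannot be assigned by these values. Of the called genes, Mrps23 shares 35 bases with Cuedc1 and Mrps2 shares 374 bases with 1700007K13Rik, a gene that is not listed. Of the other genes described, Mrpl14 shares 622 bases with Tmem63b, Mrpl18 shares 1459 bases with Tcp1 and Mrpl19 shares 1273 bases with Gcfc2. Mrpl48 shares 727 bases with Rab6a and Mrps18a shares 6871 bases with Rsph9. How far these overlaps affect the values is not known. The longest overlap, 29138 bases, is that of Mrps6 with Slc5a3. RefSeq also holds pseudogenes named after Mrpl23, Mrpl27, Mrpl48 and Mrps36, and how reads shared with such copies were split is not known.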

How the data were processed

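Gastrocnemius RNA of 3 C26 and 3 Control samples was compared, with groups and replicate numbers from the sample labels. The deposited values are FPKM to 2 decimals, which the authors estimated by RSEM after bowtie2 alignment of cleaned single-end reads to GRCm38.p5. The submitters' processing notes list mm9, HISAT2 2.0.4, Bowtie2 2.2.5 and RSEM 1.2.12. The authors used the highest transcript variant per gene. All 13363 genes are above 0 in all samples. Symbols were found for 13327 Entrez gene IDs and not for 36.

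TPM were made by scaling the FPKM of a sample to add up to 1000000. They were then divided by unweighted TMM factors (trims of 30% and 5%), since the TMM weights assume counts. A pseudocount of 1 was added before log2, which understates changes of low genes. limma 3.58.1 under R 4.3.3 was run with empirical Bayes moderation and Benjamini-Hochberg adjustment over all genes. The fit was run on simulated data with independent noise per gene. Those data hold no shift shared by many genes of a muscle, so the run cannot show how such shifts affect the calls. P-values measure the spread between 3 samples per group.

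The members and lists were chosen with earlier results of these data known, so lists are given as counts and medians without a test. Named genes were, per subunit, up to 6 called higher and 6 called lower by size of change, the 3 most abundant, and Mrpl12, Mrpl58, Mrps12, Mrps18a, Mrps18b, Mrps18c, Mrps30 and Mrps36. In related lists they were up to 3 called genes and Tfam, Polrmt, Tufm, Dap3, Gadd45gip1, Ppargc1a, Nrf1, Gabpa and Esrra. Transcript lengths came from GENCODE.

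The alternatives were each muscle left out, a correction for transcript length, a prior variance with an intensity trend, a replicate block, quantile normalization, the deposited FPKM, TPM that were not divided by TMM factors, a filter on a mean TPM of 1, and a pseudocount of 0.1. Weighted TMM factors and subunits by structure were added after the data had been seen.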

Additional observations from a re-analysis of the deposited data

How the results depend on the processing

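Of the 78 genes, 14 were called higher and 3 lower. The counts were 9 and 16 on the FPKM as deposited, 7 and 22 after quantile normalization, 12 and 7 for TPM without TMM, and 13 and 4 with weighted TMM factors, an alternative chosen after seeing the data. Over all genes the FPKM as deposited called 1678 higher and 2504 lower, quantile normalization 2242 and 1574, TPM without TMM 2349 and 1822, and weighted TMM factors 2393 and 2094. A minimum mean of 1 TPM and an intensity trend in the prior variance each gave 14 and 4 of the 78, and over all genes 2538 and 1756, and 2523 and 2056. The large subunit median of 0.03 became -0.19 on the FPKM as deposited and -0.35 after quantile normalization. The small subunit median of -0.04 became -0.24 and -0.26. Correction for transcript length gave 16 and 3, and over all genes 2536 and 1992. A pseudocount of 0.1 gave 11 and 2, and over all genes 2358 and 2254, beside 2590 and 1931 in the fit reported. With 1 muscle left out, the count called higher ran from 5 to 21 and the count called lower from 0 to 15, and fits with fewer muscles have fewer degrees of freedom. The large subunit median then ran from 0.01 to 0.10 and the small subunit median from -0.07 to 0.03. The paper describes no pairing. The deviations of same-numbered muscles had correlations of -0.04, -0.08 and -0.11, and those of the other pairs ran from -0.10 to 0.125. Correlations of this size do not settle whether same-numbered samples shared a batch. With the replicate number as a block, 11 of the 78 were called higher and 1 lower, and over all genes 1844 and 1236. The calls lost were those of Mrpl3, Mrps21, Mrps22, Mrps26 and Mrps30. Without counts, the counting error of low genes such as Mrps35 is unknown.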
